A study of Homo sapiens with 12 samples.

Results

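YAP1 and WWTR1 (the gene of TAZ), the transcription factor TEAD1, the regulators LATS2, AJUBA and AMOTL2, and the target genes CCN1, CCN2 and ANKRD1 were followed across inhibition of Ras, MEK and ERK. Their probes were all those that the platform annotation assigns to these 9 symbols, which gave 13 of 47322 probes and 9 of 20045 named genes. The cells were 16HBE, an immortalised human bronchial epithelial line, and every group carried the retroviral vector pQCXIP by stable infection. Control cells held the empty vector and were kept in the solvent DMSO for 4 days. Empty-vector cells also received, each for 4 days, either 500 nM of the MEK inhibitor GSK1120212 or 1 µM of the ERK inhibitor SCH772984. In the remaining group the vector drove the dominant-negative Ras mutant DN Ras N17, for which no solvent and no time are labelled. Each group had 3 Illumina bead arrays from 3 independent experiments, so the p-values reflect how experiments varied within 1 cell line.

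As background, YAP and TAZ are co-activators that enter the nucleus and switch on genes through TEAD factors, which bind the DNA. The Hippo kinases LATS1 and LATS2 phosphorylate YAP and TAZ and hold them in the cytoplasm, and LIM proteins such as AJUBA restrain the LATS kinases, while angiomotins such as AMOTL2 bind YAP. CCN1 and CCN2 encode secreted matrix-associated proteins and ANKRD1 a nuclear ankyrin-repeat protein, and these genes are the usual transcript readouts of YAP/TEAD activity in epithelial cells.

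Promoter sequence is shown for the members whose transcripts changed, because the core TEAD motif CATTCC, or GGAATG on the other strand, lies in these windows. The windows are the 250 bases before a start of the gene in RefSeq (GRCh38.p14), written 5′ to 3′ on the gene's strand with motif matches in capitals. Some genes have more than 1 start and so more than 1 window. RefSeq windows were at hand for 7 of the 9 members, not for TEAD1 and CCN1. CCN2 lies on the minus strand with its window at chr6:131951373-131951622, ANKRD1 on the minus strand at chr10:90921088-90921337, and AJUBA on the minus strand with the window that holds a match at chr14:22976843-22977092. The other AJUBA window, at chr14:22982552-22982801, lies further upstream and is not shown. The platform annotation assigns the brightest AJUBA probe to a different transcript than the AJUBA probe detected on no array. Which window belongs to which of these transcripts is not given. The window shown may therefore not be that of the measured transcript, and which start gave it was not tested.
CCN2: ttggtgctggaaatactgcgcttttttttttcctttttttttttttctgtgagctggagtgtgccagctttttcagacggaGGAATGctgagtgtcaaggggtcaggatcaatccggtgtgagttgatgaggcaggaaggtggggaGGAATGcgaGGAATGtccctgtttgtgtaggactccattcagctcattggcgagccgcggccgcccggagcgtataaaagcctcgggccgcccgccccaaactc
ANKRD1: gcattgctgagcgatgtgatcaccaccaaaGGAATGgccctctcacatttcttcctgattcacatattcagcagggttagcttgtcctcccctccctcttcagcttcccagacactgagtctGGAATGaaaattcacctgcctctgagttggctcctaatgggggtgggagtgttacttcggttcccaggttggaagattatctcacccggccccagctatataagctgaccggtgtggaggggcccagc
AJUBA: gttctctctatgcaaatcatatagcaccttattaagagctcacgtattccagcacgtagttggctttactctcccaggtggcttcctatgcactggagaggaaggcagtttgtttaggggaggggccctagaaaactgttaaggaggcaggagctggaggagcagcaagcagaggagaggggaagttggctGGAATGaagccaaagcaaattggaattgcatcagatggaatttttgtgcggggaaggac
The CCN2 window held 3 matches, beginning 169, 104 and 95 bases before the start, the ANKRD1 window 2 at 220 and 128 bases, and the AJUBA window 1 at 59 bases. The YAP1 window and 1 of 2 AMOTL2 windows had 1 match each, and the other AMOTL2 window, the other AJUBA window and the windows of WWTR1 and LATS2 had none of these letters. In all, 5 of 10 member windows held a match. Of 35116 windows of all genes, 11.9% held at least 1 match, 0.94% at least 2 and 0.0826% at least 3. An AP-1 motif, TGANTCA on either strand, was present in 1 of the 10 member windows, that of ANKRD1, against 6.57% of all windows. A match describes these letters and shows no binding.

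Values below are log2 intensities after background correction and quantile normalization, with log2 differences ± SE from limma over 10532 genes and Benjamini-Hochberg adjustment at a threshold of 0.05. A probe counted as detected where its detection p, its rank among the negative controls of the array, was under 0.01. Levels of different probes cannot be set against each other. In bulk RNA, fewer cells of a type and less RNA per cell cannot be told apart. Between 16825 and 18295 probes per array were detected, and the median probe had 21 or 22 beads. In DN Ras replicate 3, 85 genes lay 2-fold or more outside the range of the 2 arrays it is grouped with, and no other array had over 22 such genes. Of 7 ERK output genes, all 7 were called lower in each of the 3 inhibited groups. EGR1, an immediate-early factor among them, changed by −3.20 ± 0.16 with the MEK inhibitor, −3.24 ± 0.16 with the ERK inhibitor and −2.70 ± 0.16 with DN Ras (limma adjusted p = 2.43e-09, 5.24e-09 and 3.88e-08). The size of the fall differed among the groups, with medians of the 7 of −2.86, −1.59 and −1.74. With undetected levels raised to the lowest detected value, the MEK inhibitor median was −2.21. Limma called 3 of the 7 lower with the MEK than with the ERK inhibitor, against 10.2% of all genes. DN Ras cells had 2 of the 7 higher than MEK inhibitor cells, against 4.4% of all genes. Of 7 epithelial markers on the array, 6, 6, 7 and 7 were detected on all arrays of the control, MEK inhibitor, ERK inhibitor and DN Ras groups. Their summed intensity spanned 14212 to 15494, 9682 to 11866, 14679 to 15623 and 10411 to 13661. The keratins did not move together: on normalized values KRT8, KRT18 and KRT19 were called lower and 0 of the 7 markers higher with the MEK inhibitor, while with DN Ras KRT8 and KRT18 were called lower and KRT5 (0.63) and KRT14 (at least 1.27-fold, from below background in control) higher. With the ERK inhibitor 2 of the 7 markers were called higher and 1 lower, with differences from −0.60 to 2.56. KRT14 passed the detection filter through the ERK inhibitor and DN Ras groups alone, which favours high values there. Of all genes 16%, 11.4% and 12.3% were called with the MEK inhibitor, ERK inhibitor and DN Ras. Of 8 fibroblast markers 1, 2, 1 and 1 were detected, with sums of 670 to 725, 705 to 839, 753 to 766 and 680 to 746. On normalized values 2 of these markers were measured, and both were called higher with the MEK inhibitor (0.68 and 1.33). With the ERK inhibitor and with DN Ras 1 of the 2 was called higher, and 0 were called lower in any group. LUM among them passed the detection filter through the MEK inhibitor group alone, which favours a high value there. Of 5 endothelial markers 0 were detected on all arrays of any group, and of 5 leukocyte genes 2 were in each group, CD14 and CD68, while PTPRC and CD3D were detected on no array. The part of these marker shifts in the results below was not tested.

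Of the 9 members, 8 had a probe that could be tested, and TEAD1 among them passed the detection filter through the MEK inhibitor group alone. Across the 4 groups limma's F-test called 4 of the 8, AJUBA, CCN1, CCN2 and ANKRD1 (adjusted p = 0.000674, 0.0140, 0.00720 and 3.55e-06), against 25.5% of all genes. The other members had adjusted p-values of 0.157 for TEAD1, 0.174 for LATS2, 0.198 for YAP1 and 0.419 for AMOTL2. The genes that were called moved in different directions, 2 up and 2 down, and did so in different groups.

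**Figure D1:**
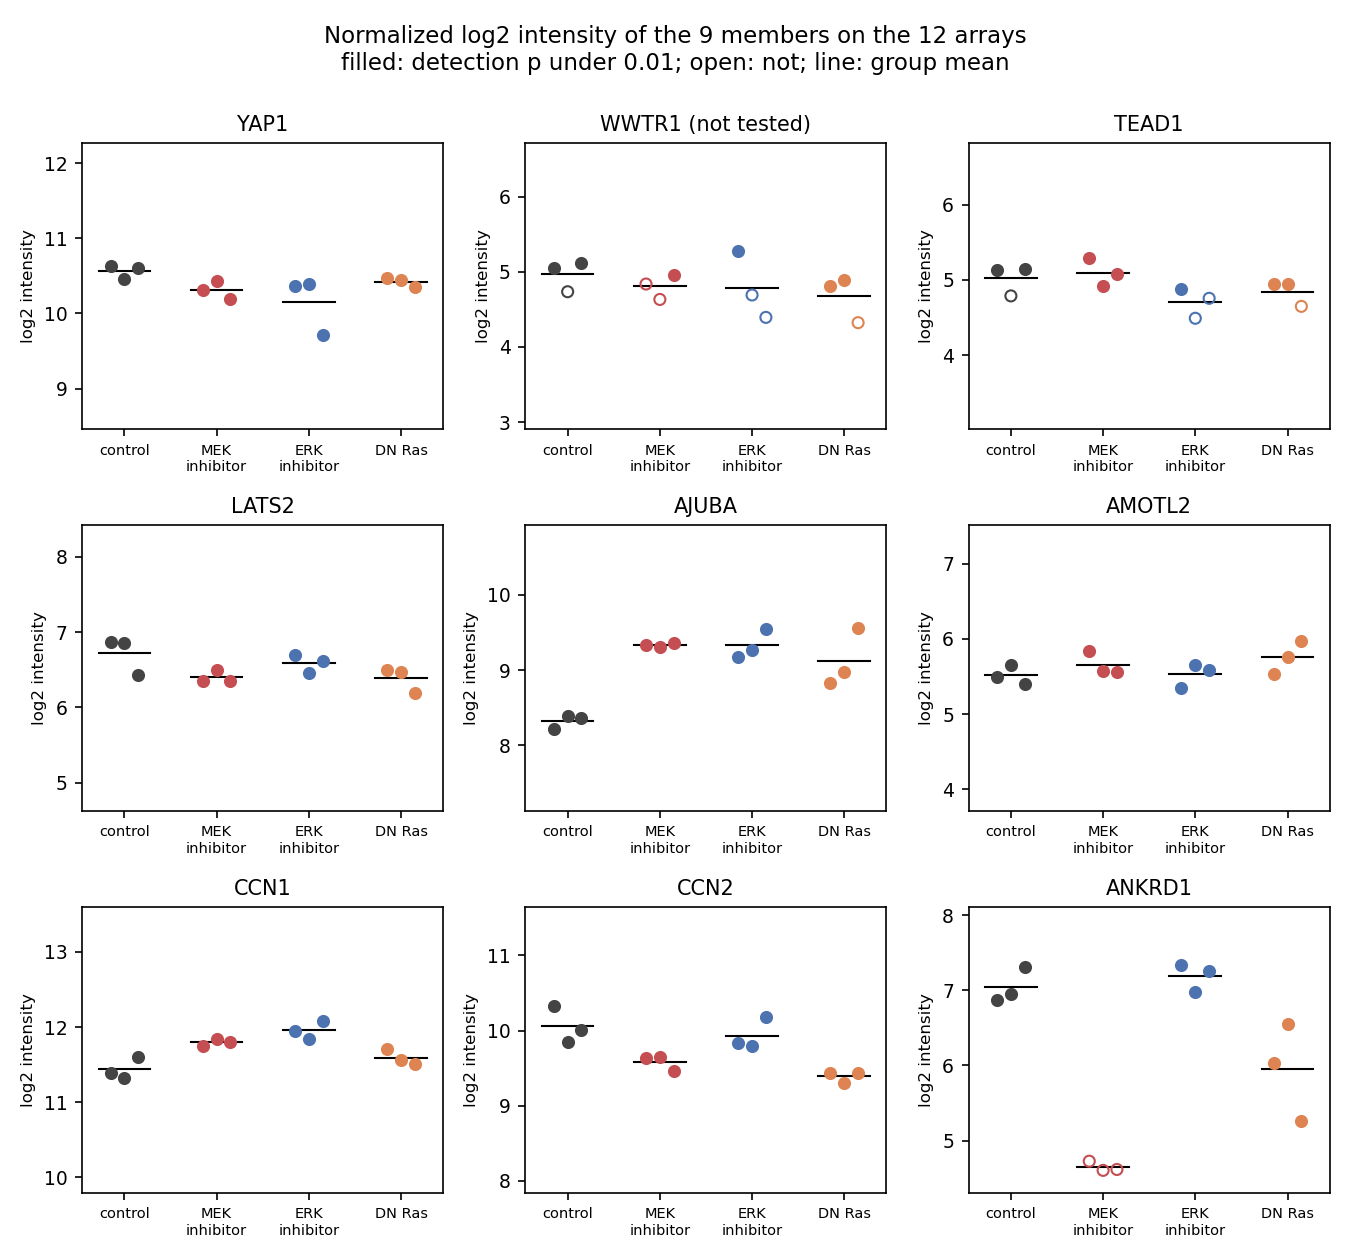
Normalized log2 intensity of the 9 members on each of the 12 arrays, with 1 panel per gene, arrays grouped on the x axis and a line at each group mean; filled points had a detection p under 0.01 and open points did not. ANKRD1 is open on the 3 MEK inhibitor arrays, and AJUBA lies above the control arrays on the 9 arrays of the inhibited groups.

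YAP1, the co-activator itself, was detected on all 12 arrays and passed no test. Control arrays read 10.63, 10.46 and 10.61, and MEK inhibitor arrays 10.31, 10.42 and 10.19. ERK inhibitor arrays read 10.36, 10.39 and 9.72, and DN Ras arrays 10.47, 10.44 and 10.35. All arrays of both drug groups thus lay below the control arrays, a separation that 37.7% of all genes showed with the MEK inhibitor and 33.8% with the ERK inhibitor in one direction or the other. The differences from control were −0.26 ± 0.15, −0.41 ± 0.15 and −0.15 ± 0.15 with MEK inhibitor, ERK inhibitor and DN Ras (limma adjusted p = 0.293, 0.101 and 0.589).

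WWTR1, the gene of the second co-activator TAZ, was near the detection limit on its single probe and was not tested. It was detected on 6 of 12 arrays, namely 2 control, 1 MEK inhibitor, 1 ERK inhibitor and 2 DN Ras arrays. Raw intensities spanned 92.9 to 104 in control, 87.3 to 102 with the MEK inhibitor, 86.3 to 110 with the ERK inhibitor and 80.6 to 93.7 with DN Ras, so the groups overlapped.

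TEAD1, the DNA-binding partner, was dim as well. One of its probes was detected on no array and the other on 8, of which 2 were control, 3 MEK inhibitor, 1 ERK inhibitor and 2 DN Ras arrays. Mean levels of the second probe were 5.02 ± 0.20, 5.10 ± 0.19, 4.71 ± 0.20 and 4.84 ± 0.17 (SD, n = 3 each) in that order. None of its differences from control passed (0.07, −0.32 and −0.18, limma adjusted p = 0.788, 0.182 and 0.474). The MEK inhibitor arrays lay above all ERK inhibitor arrays, by 0.39, and this did not pass either (limma adjusted p = 0.111). Arrays of these groups separated for 31.4% of all genes. This probe was kept through the MEK inhibitor group alone, which favours a high value there.

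LATS2, the kinase that inhibits YAP and TAZ and is itself a YAP target, was detected on all 12 arrays. Its values were 6.87, 6.86 and 6.43 in control, 6.35, 6.50 and 6.35 with the MEK inhibitor, 6.69, 6.45 and 6.61 with the ERK inhibitor and 6.49, 6.47 and 6.19 with DN Ras. Control replicate 3 lay within the ranges of the MEK inhibitor and DN Ras groups and just below the ERK inhibitor arrays, and each inhibited group overlapped control. With all arrays the differences were −0.32 ± 0.14, −0.13 ± 0.14 and −0.33 ± 0.14 (limma adjusted p = 0.134, 0.578 and 0.126). Without control replicate 3 LATS2 was called lower with the MEK inhibitor (−0.46, limma adjusted p = 0.0409) and with DN Ras (−0.48, limma adjusted p = 0.0464).

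AJUBA, the LIM protein that restrains LATS kinases (probe ILMN_1687275), rose in all 3 inhibited groups. Control arrays read 8.22, 8.39 and 8.37, MEK inhibitor arrays 9.33, 9.30 and 9.36, ERK inhibitor arrays 9.18, 9.26 and 9.55, and DN Ras arrays 8.83, 8.97 and 9.56. No inhibited array reached down to the control range, where arrays separated in either direction for 37.7%, 33.8% and 30.6% of all genes with MEK inhibitor, ERK inhibitor and DN Ras. The widest group was DN Ras, whose replicate 3 lay well above the rest of its group. The rise was 1.01 ± 0.16 with the MEK inhibitor, or 2.01-fold (limma adjusted p = 0.000453), 1.00 ± 0.16 with the ERK inhibitor (limma adjusted p = 0.000837) and 0.79 ± 0.16 with DN Ras, or 1.73-fold (limma adjusted p = 0.00446). Without DN Ras replicate 3 the last was 0.58 (limma adjusted p = 0.0109). AJUBA did not differ detectably between the drugs, with a difference of 0.00 and a 95% confidence interval of −0.34 to 0.34. DN Ras cells differed from either drug by −0.21, each time with an interval of −0.55 to 0.13. Without DN Ras replicate 3 the difference was −0.43 from either (limma adjusted p = 0.0627 from the MEK and 0.0622 from the ERK inhibitor).

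These values come from 1 of 3 AJUBA probes, the brightest. A second probe was dim, detected on 1, 3, 2 and 2 arrays of control, MEK inhibitor, ERK inhibitor and DN Ras cells. It passed the detection filter through the MEK inhibitor group alone, which favours a high value there. Fitted by itself it gave 0.51, 0.18 and 0.15 against control, and none passed (limma adjusted p = 0.0926, 0.607 and 0.677). The remaining probe was detected on no array. With the mean of both kept probes in place of the brightest, the rises were 0.76 with the MEK inhibitor and 0.59 with the ERK inhibitor (limma adjusted p = 0.00328 and 0.0217), and the DN Ras difference of 0.47 no longer passed (limma adjusted p = 0.0559). The MEK inhibitor value of this mean shares the limit of the second probe.

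AMOTL2, an angiomotin that binds YAP and a YAP target, passed no test. It was detected on all 12 arrays, on 9 to 20 beads, with means of 5.51 ± 0.12 in control, 5.65 ± 0.16 with the MEK inhibitor, 5.53 ± 0.16 with the ERK inhibitor and 5.75 ± 0.22 with DN Ras (SD, n = 3 each). The differences from control were 0.14, 0.01 and 0.24 (limma adjusted p = 0.544, 0.960 and 0.279).

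CCN1, an early target of YAP that encodes a secreted matricellular protein (probe ILMN_2188264), rose with both drugs. Control arrays read 11.39, 11.32 and 11.60, MEK inhibitor arrays 11.75, 11.85 and 11.80, ERK inhibitor arrays 11.94, 11.85 and 12.09, and DN Ras arrays 11.70, 11.56 and 11.51. Every array of the drug groups exceeded the control arrays, against 37.7% and 33.8% of all genes separated in either direction, while the DN Ras arrays overlapped control. The rise was 0.36 ± 0.12 with the MEK inhibitor, or 1.29-fold (limma adjusted p = 0.0429), and 0.52 ± 0.12 with the ERK inhibitor, or 1.44-fold (limma adjusted p = 0.00886). For DN Ras the difference was 0.15 (limma adjusted p = 0.431), with a 95% confidence interval of −0.09 to 0.40.

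Both CCN1 calls ended when arrays were scaled to 1 median in place of quantile normalization, with values of 0.25 and 0.44 (limma adjusted p = 0.490 and 0.172). Under that scaling the median of all genes shifted by −0.12 with the MEK inhibitor, 0.12 with the ERK inhibitor and −0.10 with DN Ras, so relative to all genes the drugs moved CCN1 in the same direction as before. The MEK inhibitor call also ended with all kept probes in 1 fit (limma adjusted p = 0.0522), without control replicate 1 or 2, without any 1 of the MEK inhibitor replicates, and without ERK inhibitor replicate 1, which enters the shared spread (limma adjusted p = 0.0511 to 0.146).

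CCN2, the gene of connective tissue growth factor (probe ILMN_1699829), fell with the MEK inhibitor and with DN Ras. Control arrays read 10.33, 9.85 and 10.01, MEK inhibitor arrays 9.64, 9.65 and 9.46, ERK inhibitor arrays 9.83, 9.80 and 10.17, and DN Ras arrays 9.44, 9.30 and 9.43. The MEK inhibitor and DN Ras arrays lay below every control array, as arrays separated in either direction for 37.7% and 30.6% of all genes, and the ERK inhibitor arrays overlapped control. The change was −0.48 ± 0.14 with the MEK inhibitor, or 1.40-fold lower (limma adjusted p = 0.0280), and −0.67 ± 0.14 with DN Ras, or 1.59-fold lower (limma adjusted p = 0.00556; −0.69 and 0.0107 without DN Ras replicate 3). With the ERK inhibitor it was −0.13 ± 0.14 (limma adjusted p = 0.610), with a 95% confidence interval of −0.43 to 0.17.

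A second CCN2 probe, read on 5 to 20 beads with the fewest on DN Ras replicate 2, gave like values in a fit of all probes. It differed from control by −0.46 with the MEK inhibitor, −0.04 with the ERK inhibitor and −0.71 with DN Ras (limma adjusted p = 0.0413, 0.895 and 0.00490). The MEK inhibitor call on the first probe was lost without control replicate 1 or 3 or MEK inhibitor replicate 2 or 3 (limma adjusted p = 0.150, 0.0597, 0.0580 and 0.112). In both groups where CCN2 and ANKRD1 were lower, the summed epithelial marker intensity lay below the control range, and its part in these falls was not tested. The sum does not show single markers. With the ERK inhibitor it overlapped control, yet 2 of the 7 markers were called higher and 1 lower. With DN Ras 2 were called higher and 2 lower.

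ANKRD1, the gene of the cardiac ankyrin repeat protein and a direct YAP/TEAD target (probe ILMN_1716264), showed the largest change among the members. Its raw probe intensities were 172, 191 and 242 in control, 87.4, 86.8 and 93.8 with the MEK inhibitor, 249, 215 and 246 with the ERK inhibitor and 134, 149 and 97.0 with DN Ras. On the normalized log2 scale control arrays read 6.87, 6.95 and 7.31, MEK inhibitor arrays 4.73, 4.60 and 4.62, ERK inhibitor arrays 7.33, 6.97 and 7.25, and DN Ras arrays 6.03, 6.55 and 5.26. The transcript was detected on none of the MEK inhibitor arrays and on all 9 others. DN Ras arrays formed a middle group between control and MEK inhibitor, with no overlap on either side, as for 30.6% of all genes against control and 21.3% against the MEK inhibitor. The ERK inhibitor arrays overlapped control.

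With the MEK inhibitor ANKRD1 fell at least 4.56-fold (limma adjusted p = 3.15e-06). This bound sets the control mean against, on each array of the inhibitor, the lowest detected value or the probe's own value, whichever was higher. The fitted difference, which rests on values not above background, was −2.39 ± 0.23. With DN Ras it changed by −1.09 ± 0.23, or 2.13-fold lower (limma adjusted p = 0.00612; −0.75 and 0.0110 without DN Ras replicate 3). With the ERK inhibitor the difference was 0.14 ± 0.23 (limma adjusted p = 0.740), with a 95% confidence interval of −0.35 to 0.64. Without background correction the changes were −1.12 with the MEK inhibitor and −0.60 with DN Ras, and both still passed.

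**Figure D2:**
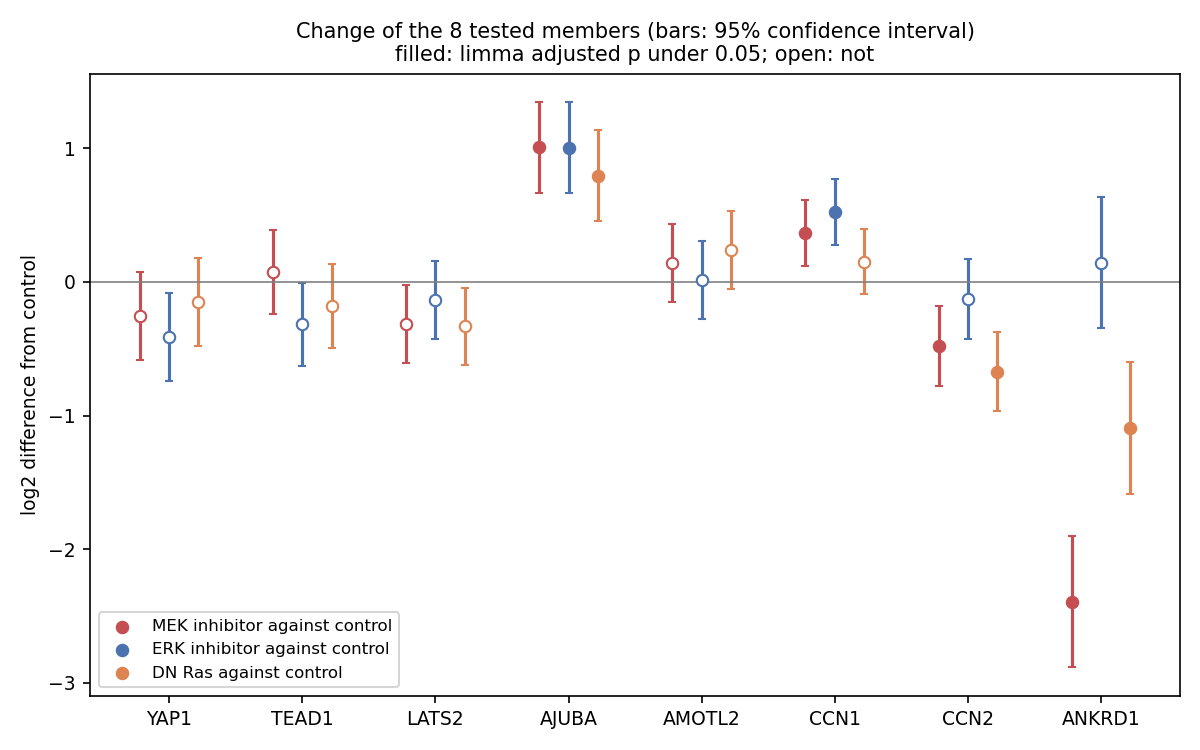
Log2 difference from control of the 8 tested members, with 95% confidence intervals from limma, for the MEK inhibitor, the ERK inhibitor and DN Ras; filled points passed an adjusted p of 0.05 and open points did not. AJUBA is filled and above 0 in all 3 groups, CCN1 with both drugs, and CCN2 and ANKRD1 are filled and below 0 with the MEK inhibitor and DN Ras.

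In counts, the MEK inhibitor raised AJUBA and CCN1 and lowered CCN2 and ANKRD1, 4 of 8 members, where 16% of all genes were called. The ERK inhibitor raised AJUBA and CCN1, 2 of 8, against 11.4% of all genes, and limma called 0 lower. DN Ras raised AJUBA and lowered CCN2 and ANKRD1, 3 of 8, against 12.3% of all genes. Median differences of the 8 members from control were −0.09, −0.06 and −0.16 in these groups, and those of all genes 0.01, −0.01 and 0.01. At an unadjusted p under 0.05, 2, 2 and 1 members were higher with MEK inhibitor, ERK inhibitor and DN Ras, against 13.8%, 12.8% and 13.7% of all genes, and 3, 2 and 3 were lower, against 15.4%, 13.6% and 13.8%. The members lower by this measure alone were YAP1 and TEAD1 with the ERK inhibitor and LATS2 with the MEK inhibitor and DN Ras. The 3 comparisons share the control arrays.

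Inhibitors and DN Ras were then compared with each other for these genes. The MEK and ERK inhibitors differ in agent, dose and target, so a difference between them cannot be assigned to the target alone. DN Ras cells stably carried a mutant with no solvent and no time labelled, while the drugs were given for 4 days. Differences between DN Ras and a drug thus cannot be assigned to the point of inhibition alone either. ANKRD1 was at least 5.04-fold lower with the MEK inhibitor than with the ERK inhibitor (limma adjusted p = 3.78e-06), and it was the only 1 of the 8 members called between the drugs, where 10.2% of all genes were called. Its fitted difference was −2.54, with a 95% confidence interval of −3.03 to −2.04. CCN2 arrays were all lower with the MEK inhibitor, a separation seen for 31.4% of all genes, and the difference of −0.35 ± 0.14 did not pass (limma adjusted p = 0.131); under median scaling, where all genes shifted by −0.24, the value was −0.62 (limma adjusted p = 0.0235).

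ANKRD1 was at least 2.14-fold higher with DN Ras than with the MEK inhibitor (limma adjusted p = 0.00502), and it was the 1 member of 8 called where 4.4% of all genes were. Its fitted difference was 1.30, with a 95% confidence interval of 0.81 to 1.79. The arrays of these groups separated for 21.3% of all genes. Without background correction the ANKRD1 difference was smaller, 0.51 here and −1.21 for the MEK against the ERK inhibitor. Both still passed (limma adjusted p = 0.0383 and 2.86e-05). Against the ERK inhibitor, DN Ras cells had less ANKRD1 (−1.24 ± 0.23, limma adjusted p = 0.00365) and less CCN2 (−0.54 ± 0.14, limma adjusted p = 0.0225), 2 of 8 members against 10.9% of all genes. The CCN2 call was lost with only the compared groups in the fit, without ERK inhibitor replicate 3 and without DN Ras replicate 2 (limma adjusted p = 0.0560, 0.0968 and 0.0701). CCN1 was lower with DN Ras than with the ERK inhibitor on every array, where 27.5% of all genes separated in this way, and missed the threshold (−0.37 ± 0.12, limma adjusted p = 0.0517). Under 5 alternative settings it was called (limma adjusted p = 0.0174 to 0.0480), and without DN Ras replicate 3 the adjusted p was 0.142 in the same limma fit.

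The genes whose profiles lay nearest to each called member were found by the root mean square difference over the 12 arrays, each profile taken relative to its control mean. For ANKRD1 these were SOX9, a transcription factor of epithelial progenitors (0.295), and NFE2L3, a leucine zipper factor (0.351). Since they were chosen for this pattern, their values are a description with no test. The SOX9 differences from control were −2.08 with the MEK inhibitor, −0.04 with the ERK inhibitor and −1.15 with DN Ras, and those of NFE2L3 −1.98, −0.16 and −1.06. ANKRD1 was not above background on the 3 MEK inhibitor arrays, so these distances rest in part on values that are only bounds. SOX9 and NFE2L3 were detected on all 12 arrays, so for them the level with the MEK inhibitor was measured and not a bound. Their values were lower with the MEK than with the ERK inhibitor by −2.04 for SOX9 and −1.82 for NFE2L3.

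For AJUBA the nearest were NTN4, which encodes the laminin-related netrin-4 (0.122), and PDLIM1, a PDZ and LIM domain protein of actin fibres (0.209). The NTN4 values relative to control were 1.10, 0.92 and 0.71 with MEK inhibitor, ERK inhibitor and DN Ras, and those of PDLIM1 were 0.78, 0.70 and 0.88. For CCN1 they were DRAM2 (0.0705) and JARID2 (0.0969), and for CCN2 the palmitoyltransferase gene ZDHHC13 (0.126) and the phosphate transporter gene SLC20A2 (0.129). These names follow from the profiles alone.

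**Figure D3:**
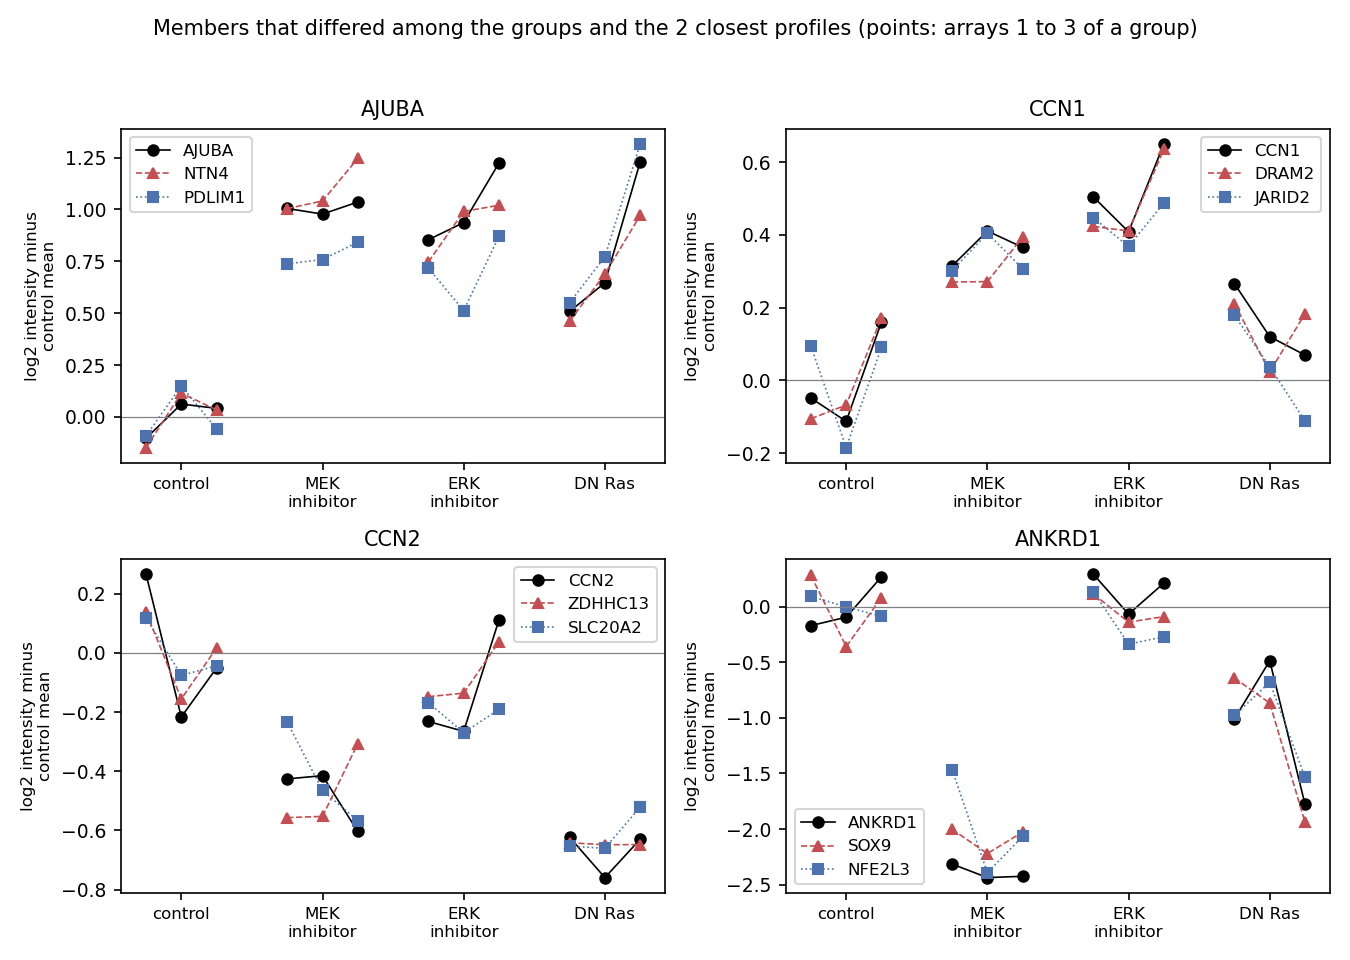
Log2 intensity relative to the control mean on each of the 12 arrays for AJUBA, CCN1, CCN2 and ANKRD1 and the 2 genes nearest to each; the 3 joined points of a group are its arrays 1 to 3, whose order carries no meaning. SOX9 and NFE2L3, chosen for this, lie with ANKRD1 well below 0 with the MEK inhibitor, near 0 with the ERK inhibitor and between with DN Ras.

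Among 24 Hippo pathway genes, which hold upstream kinases, scaffolds, angiomotins and TEAD cofactors, 21 were measured and most did not pass. LIMD1, a LIM protein related to AJUBA, was detected on no array, and the kinase LATS1 and the angiomotin AMOTL1 on too few to be tested. With the MEK inhibitor 1 rose and 0 fell (median 0.03), with the ERK inhibitor 2 rose and 1 fell (median 0.10), and with DN Ras 4 rose and 1 fell (median 0.10), where 16%, 11.4% and 12.3% of all genes were called. At an unadjusted p under 0.05, limma had 2 higher and 1 lower, 2 and 2, and 6 and 2 in these groups. VGLL3, a cofactor that binds TEADs, rose by 0.76 ± 0.15 with the MEK inhibitor and 0.52 with DN Ras (limma adjusted p = 0.00235 and 0.0343; 0.33 and 0.124 for DN Ras without its replicate 3). The DN Ras call was lost under 6 settings in all (limma adjusted p up to 0.244).

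TEAD family members differed among themselves. TEAD2 rose by 0.43 with the ERK inhibitor (limma adjusted p = 0.0391) and 0.63 ± 0.13 with DN Ras (limma adjusted p = 0.00417), and TEAD3 by 0.61 with the ERK inhibitor (limma adjusted p = 0.0129). TEAD4 fell by 0.38 with the ERK inhibitor (limma adjusted p = 0.0464), a call that 14 of the alternative settings did not keep, as 7 did not for TEAD2 with the ERK inhibitor. With DN Ras the angiomotin AMOT fell by 0.85 ± 0.20 (limma adjusted p = 0.0130). TEAD3 lost its call under 2 settings, and AMOT and TEAD2 with DN Ras each under 1 (limma adjusted p up to 0.0643, 0.0609 and 0.110). The TEAD cofactor VGLL4 and the Hippo scaffold SAV1 rose by 0.36 and 0.47 with DN Ras (limma adjusted p = 0.0357 and 0.0456), calls lost under 6 and 12 settings.

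A list of 17 further YAP/TAZ target genes, written from general knowledge with no source table at hand, had 15 measured, and these split in direction. With the MEK inhibitor 4 rose and 3 fell (median 0.10), with the ERK inhibitor 3 rose and 2 fell (median 0.14), and with DN Ras 2 rose and 1 fell (median 0.12), against the same 16%, 11.4% and 12.3% of all genes. At an unadjusted p under 0.05, limma had 5 higher and 4 lower, 5 and 3, and 2 and 4. NT5E, the ecto-enzyme CD73, fell in all groups, with changes of −2.29 ± 0.20, −1.08 ± 0.20 and −2.11 ± 0.20 (limma adjusted p = 8.88e-07, 0.00216 and 5.45e-06). CCDC80, a secreted matrix protein, rose in all groups, by 1.46 ± 0.12, 0.75 ± 0.12 and 0.95 ± 0.12 (limma adjusted p = 6.36e-07, 0.000837 and 9.8e-05).

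Other targets were called in 1 or 2 groups. TGFB2, a transforming growth factor, rose with the MEK inhibitor (0.82, limma adjusted p = 0.00341) and with the ERK inhibitor (1.04, limma adjusted p = 0.000905). FJX1, which encodes a secreted protein, fell by 1.00 and 0.68 with the MEK and ERK inhibitors (limma adjusted p = 0.000653 and 0.0154). IGFBP3, which binds insulin-like growth factors in the extracellular space, rose by 0.75 with the MEK inhibitor and 0.76 with DN Ras (limma adjusted p = 0.00838 and 0.00981). GADD45A, a stress response gene, rose by 0.64 with the ERK inhibitor (limma adjusted p = 0.0217). CRIM1 (0.76) and the tissue factor gene F3 (−0.56), the remaining calls with the MEK inhibitor, are named here after their values were seen (limma adjusted p = 0.00839 and 0.0471). The F3 call was lost under 8 settings, those of FJX1 and GADD45A with the ERK inhibitor under 5 each, and those of CRIM1 and of IGFBP3 with DN Ras under 1 each (limma adjusted p up to 0.164, 0.0986, 0.0894, 0.0505 and 0.0560).

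**Figure D4:**
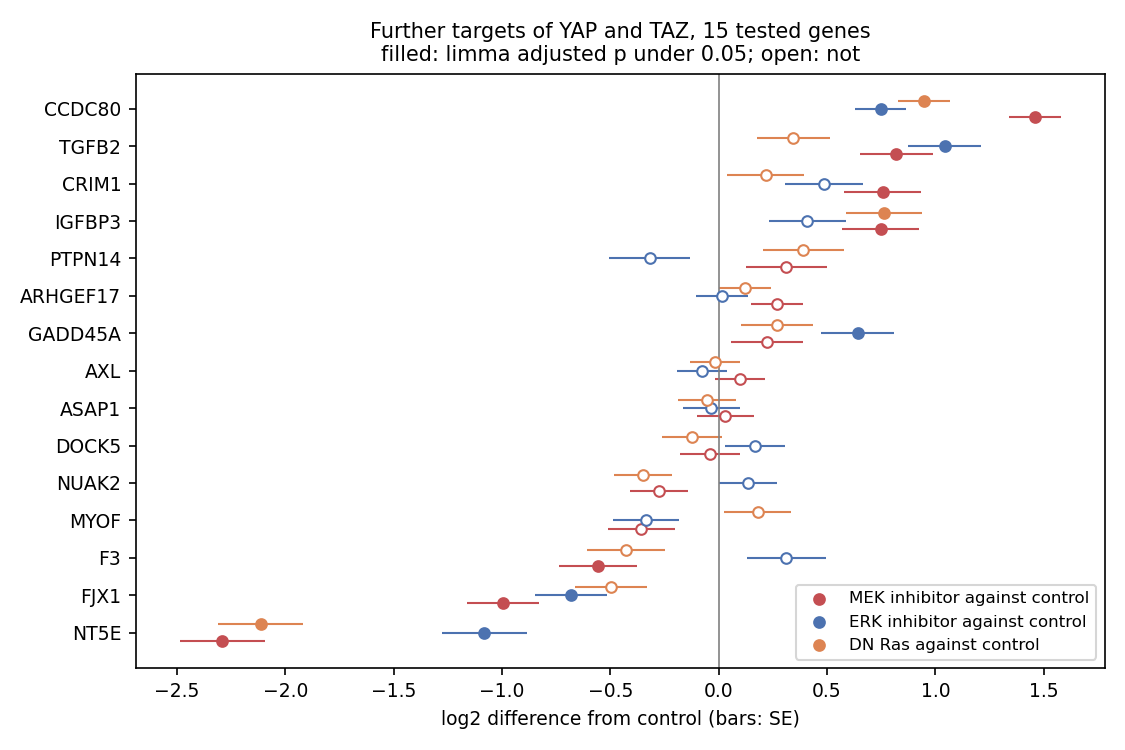
Log2 difference from control with its SE for the 15 measured further YAP and TAZ targets, ordered by the MEK inhibitor value; filled points passed an adjusted p of 0.05. NT5E lies lowest and is filled in all 3 groups, and CCDC80 is filled above 0 in all 3.

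SRF, its actin-responsive MRTF cofactors and their targets had 12 of 14 genes measured. With the MEK inhibitor 1 rose and 1 fell (median 0.11), with the ERK inhibitor 4 rose and 0 fell (median 0.15), and with DN Ras 0 rose and 3 fell (median −0.15), where 16%, 11.4% and 12.3% of all genes were called. At an unadjusted p under 0.05, limma's counts were 3 higher and 1 lower, 4 and 0, and 1 and 4. TAGLN, the actin-binding transgelin, rose by 1.65 ± 0.17 and 1.73 ± 0.17 with the MEK and ERK inhibitors (limma adjusted p = 6.77e-06 and 8.81e-06). With the ERK inhibitor the myosin light chain MYL9 (0.90, limma adjusted p = 0.00362), vinculin gene VCL (0.59, limma adjusted p = 0.00656) and the tropomyosin TPM1 (0.47, limma adjusted p = 0.0325) rose as well. ACTA2, smooth muscle actin, fell by 0.59 with the MEK inhibitor and 0.54 with DN Ras (limma adjusted p = 0.0128 and 0.0277). VCL and SRF fell by 0.42 and 0.37 with DN Ras (limma adjusted p = 0.0414 and 0.0459), calls lost under 10 and 15 settings. The TPM1 call and the ACTA2 call with DN Ras were lost under 5 settings each, and the VCL call with the ERK inhibitor and the ACTA2 call with the MEK inhibitor under 1 each (limma adjusted p up to 0.264, 0.115, 0.0510 and 0.0624).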

How the data were processed

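Biotinylated cRNA made from the total RNA of 12 samples was read on Illumina bead arrays, 1 per sample, per the labels' protocols. The deposited table gives, per the file headers, the mean bead intensity of each probe without normalization, the count of beads, the bead standard error (a signal value, not used in tests) and a detection p-value. The submitters' processing notes name GenomeStudio; its settings are not given in the sources at hand. Processed intensity values that the authors deposited for 47317 probes, which go below 0 and share their quantiles, served as an alternative; the steps behind them are likewise not given.

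Groups came from the sample titles. Intensities were processed with limma 3.58.1 (R 4.3.3) by neqc, with background estimated from the detection p-values, an offset of 16, quantile normalization and log2. Quantile normalization removes a change of most genes in 1 direction. The platform annotation, which can be old, gave 30112 probes 1 symbol, 8 several and 17202 none. A probe was kept if at least 1 group had it detected (p under 0.01) on each of its 3 arrays (17099, of which 13885 named), and the brightest stood for a gene, which gave 10532 genes. All 13 member probes matched by symbol and 10 were kept. Tests were lmFit and eBayes on 4 group means with 1 spread, two-sided, for 6 comparisons, adjusted over all genes. The fit was tested on simulated data with noise drawn independently for each array. Over the 6 comparisons it called 35.4% to 41.9% of changes of 0.5 and 98.0% to 100% of changes of 1. False calls made up 4.79% to 6.22% of all calls. A true change near 0.5 could thus often pass no test. The number of arrays limits precision.

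The members and gene lists were chosen with earlier results of these data known. Genes named were the members, up to 5 called genes per list and comparison in order of adjusted p, Hippo genes detected on no array, and the 2 nearest profiles per called member, without symbols that start with LOC, HS. or FLJ. Alternatives were median scaling, no background correction, the authors' values, other detection filters and probe rules, only the groups compared, a replicate block and leaving out each array.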

Additional observations from a re-analysis of the deposited data

How the results depend on the processing

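With the replicate number as a block, 48 of 48 member differences kept their call (ANKRD1 with the MEK inhibitor, adjusted p = 7.46e-06) and 1809, 1286 and 1420 genes were called for MEK inhibition, ERK inhibition and DN Ras against control. Same-numbered arrays deviated together at r = −0.185 to 0.331 (median 0.0965) and 7 of 12 arrays were nearest to their own number. These values do not settle whether the numbers pair the samples. Per the design text each of the 3 experiments gave 4 samples, but no label says that the numbers mark the experiments. The main fit therefore left the numbers out. The authors' processed values kept the call and direction of 48 of 48 as well.

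Member counts moved by over 1.5 times under median scaling with the ERK inhibitor (1) and between the drugs (2), with only the compared groups for DN Ras against the ERK inhibitor (1), and over probes detected on all 12 arrays, which leave out ANKRD1, between the drugs (0) and for DN Ras against the MEK inhibitor (0). They moved by less with the MEK inhibitor, to 3 of 8 under median scaling, with all kept probes in 1 fit and over probes detected on all 12 arrays, with DN Ras to 2 under the mean of all kept probes and over probes detected on all 12 arrays, and for DN Ras against the ERK inhibitor to 3 without background correction, without a detection filter and under the mean of all kept probes. Leaving out 1 array gave 2 to 4 members with the MEK inhibitor (2 without control replicate 1 or MEK inhibitor replicate 2 or 3), 2 in each case with the ERK inhibitor, 3 to 4 with DN Ras, 1 in each case between the drugs and for DN Ras against the MEK inhibitor, and 1 to 3 for DN Ras against the ERK inhibitor (1 without ERK inhibitor replicate 3 or DN Ras replicate 2).

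Over all genes, median scaling called 747 with the ERK inhibitor (630 higher, against 624 of 1201), 718 with DN Ras (166 higher, against 612 of 1291) and 274 for DN Ras against the MEK inhibitor (183 higher, against 262 of 463). The split also moved with the MEK inhibitor (254 of 1136 higher, against 749 of 1682), between the drugs (64 of 1450, against 371 of 1076) and for DN Ras against the ERK inhibitor (59 of 1333, against 504 of 1145). Fitting only the compared groups called 791 with DN Ras, 147 for DN Ras against the MEK inhibitor, and 495 for DN Ras against the ERK inhibitor, and no detection filter called 295 for DN Ras against the MEK inhibitor. Leaving out 1 array gave 1035 to 2023 with the MEK inhibitor, 634 to 1547 with the ERK inhibitor, 745 to 1510 with DN Ras, 575 to 1421 between the drugs, 140 to 720 for DN Ras against the MEK inhibitor, and 634 to 1459 for DN Ras against the ERK inhibitor. Causes were not tested.

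Differences that changed sign had passed no test. Under median scaling these were YAP1 between the drugs (−0.10) and for DN Ras against the ERK inhibitor (−0.016), LATS2 with the ERK inhibitor (0.025) and for DN Ras against the MEK inhibitor (0.025), AJUBA (−0.28) and AMOTL2 (−0.11) between the drugs, and CCN1 with DN Ras (−0.0035). With 1 array left out, YAP1 spanned −0.068 to 0.27 between the drugs, TEAD1 −0.045 to 0.16 with the MEK inhibitor, LATS2 −0.070 to 0.080 for DN Ras against the MEK inhibitor, AJUBA −0.074 to 0.11 between the drugs, AMOTL2 −0.050 to 0.10 with the ERK inhibitor and −0.0068 to 0.21 for DN Ras against the MEK inhibitor, and CCN2 −0.25 to 0.0052 with the ERK inhibitor.

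The dimmest probes limit what can be said: WWTR1 and TEAD1 lay near background, and ANKRD1 with the MEK inhibitor has only a bound.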
